A study of Mus musculus with 24 samples.

Results

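The lysosome is the acidic compartment in which cells take proteins, glycans and lipids apart. The genes described here code for its enzymes, for proteins of its membrane and lumen, and for the TFEB family of transcription factors that switch many of them on. The set holds 43 genes named by symbol. All 43 have a row in both deposited tables, out of 19134 genes that the tables share. They were followed in mouse E14 embryonic stem cells, wild type and labelled as Smad2 knockout, in growth medium and during pausing.

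The 24 poly(A) RNA libraries come from 6 groups of 4. Wild-type E14 cells, the knockout line Smad2_KO1 and the knockout line Smad2_KO2 were each kept as control or paused cells. All groups grew on gelatin in serum medium with leukaemia inhibitory factor. Paused cells also had 200 nM INK128, an inhibitor of the kinase mTOR, for 12 h. Each knockout is a separate line, and the labels do not say whether a line is 1 clone or how Smad2 was disrupted. They also do not say whether replicates are separate cultures, so p-values measure only the spread between these libraries. The Smad2 protein acts in the nucleus as a relay of Nodal and activin signalling.

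mTOR complex 1 works on the surface of the lysosome. When it is active it phosphorylates TFEB, TFE3 and MITF and so keeps them in the cytoplasm. When it is inhibited these factors can enter the nucleus and bind E-box and related sites in the promoters of lysosomal genes, an arrangement known as the CLEAR network. In embryonic stem cells TFE3 is also known as a factor whose location bears on the exit from pluripotency. Phosphorylation and location leave no mark in an RNA table, so the values below are RNA levels only.

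The deposited tables hold, per gene, a mean normalized count over libraries, a log2 change with its standard error, and a p-value adjusted over the whole table. Values per library are not analysed here, which leaves depth and spread of each library unknown. Which knockout libraries entered each comparison is not given in the sources used here. The numerator is not named; changes are read with wild type as the base, since Smad2 was lower in both conditions, at 78.6% of wild type in control and 64.6% in paused cells (95% intervals 71.4% to 86.5% and 59.8% to 69.8%, computed from the authors' deposited tables). Most Smad2 RNA thus remained in the libraries labelled knockout; RNA does not show whether protein is made. Markers of pluripotent cells matched the labelled cell type. All 10 listed had a median level per kilobase at the percentile 98.7 of all genes in control cells. Markers of other cell types were not flat: 7 of 9 primitive and visceral endoderm genes were called higher in control and 8 of 9 in paused cells, with summed means of 1274 and 2077 normalized counts against 274567 and 238061 for the pluripotency genes. The counts for the other lists, in control and then paused cells, were 4 and 4 of 8 trophoblast genes called higher with 2 (Cdx2 and Eomes) and 1 (Cdx2) called lower, 4 and 4 of 6 fibroblast genes called lower, and 3 and 3 of 4 macrophage genes called higher. The macrophage genes had summed means of 802 and 818 normalized counts, of which Cd68 held 716 and 732. In control cells Csf1r, Itgam and Fcer1g had low means of 14.0, 61.5 and 10.7. Visceral endoderm and macrophages are rich in lysosomes. Afp, Ttr and Apoa1, which define visceral endoderm, and the macrophage genes Ptprc, Adgre1, Tyrobp and Lyz2 were not analysed here. The part of these markers in the results below was not tested. In bulk RNA a change in the number of cells of a type and a change in RNA per cell cannot be told apart.

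The promoters of these genes carry the letters that TFEB, TFE3 and MITF are known to bind more often than promoters do in general. Promoter windows of 300 bases, 250 before and 50 after the start, from RefSeq on GRCm38.p6 matched 38 of the 43 genes. The E-box core CACGTG, the same on both strands, was in a window of 13 of 38 (34.2%). It was in 10.9% of the 13624 other and member genes with a window in both tables, and in 7.15% of all 32851 windows. The extended form TCACGTG, searched on both strands and containing the core, was in 11 of 38 (28.9%) against 6.27% of genes. The M-box TCATGTG, also searched on both strands and not overlapping the core, was in 6 of 38 (15.8%) against 3.05%. The full CLEAR palindrome GTCACGTGAC was in 1 member, Cln3, and in 0.639% of genes. A match is a run of letters and not a measured binding site.

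Shown here are stretches that carry these letters in genes the values below turn on, 5′ to 3′ on the strand of the gene, with the motif in capitals. Lamp1 holds 4 E-box cores close to its start, Scarb2 an M-box, and Cln3 the CLEAR palindrome. The Mcoln1, Naglu, Sgsh and Cln3 stretches are cut to 30 bases because GENCODE M21 annotates part or all of each as UTR.
Lamp1, chr8:13159061-13159160, plus strand: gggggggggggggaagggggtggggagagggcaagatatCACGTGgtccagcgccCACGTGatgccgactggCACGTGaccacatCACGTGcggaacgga
Mcoln1, chr8:3500436-3500465, plus strand: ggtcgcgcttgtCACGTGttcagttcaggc
Mcoln1, chr8:3500462-3500491, plus strand: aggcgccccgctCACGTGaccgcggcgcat
Naglu, chr11:101070009-101070038, plus strand: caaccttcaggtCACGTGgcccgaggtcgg
Sgsh, chr11:119355522-119355551, minus strand: gggcctgccgtgCACGTGaccgtggggagc
Glb1, chr9:114400973-114401072, plus strand: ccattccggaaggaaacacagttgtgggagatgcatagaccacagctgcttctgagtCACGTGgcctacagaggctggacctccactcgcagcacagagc
Arsa, chr15:89477430-89477529, minus strand: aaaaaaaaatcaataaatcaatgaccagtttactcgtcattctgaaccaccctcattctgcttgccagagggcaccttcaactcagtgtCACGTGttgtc
Cln3, chr7:126583342-126583371, minus strand: ctcacgggtactGTCACGTGACccccaacc
Scarb2, chr5:92505658-92505757, minus strand: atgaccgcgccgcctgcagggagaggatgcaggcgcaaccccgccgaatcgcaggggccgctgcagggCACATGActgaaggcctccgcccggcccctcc

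The lysosomal genes span a wide range of levels. Levels between genes are given as mean normalized counts per kilobase of the longest GENCODE M21 transcript. In control cells Lamp1, a heavily glycosylated protein of the lysosomal membrane, stood highest at 6319 per kilobase, the percentile 97.5 of all genes with a length. Psap, the precursor of the saposins that help enzymes reach sphingolipids, followed at 5042, and Ctsd, an aspartic protease, at 4222. The lowest were Ctsh, a cysteine protease, at 5.56, Arsb, which acts on dermatan sulfate, at 20.1, and the heparan sulfate enzymes Sgsh and Naglu at 22.0 and 28.9 per kilobase. The median member stood at the percentile 67.4 in control and 69.9 in paused cells. The tables give no error for a mean, so genes next to each other in this order are not separated.

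Many lysosomal genes stood at a higher mean count in the paused table than in the control table. The 2 tables were normalized separately, neither mean has a spread, and each is taken over libraries that are not named, so this ratio has no test, and INK128 and the separate scaling cannot be told apart. The median ratio of paused to control mean was 1.41 over the 43 genes and 1.02 over all shared genes. A ratio of at least 1.5 was found for 19 of 43, against 18.9% of all genes, and a ratio of at least 2 for 10 of 43, against 7.57%. Above the minimum mean the counts were 16 of 39, against 13.4%, and 8 of 39, against 4.23%. With levels of wild-type cells recovered from the mean and the change, 19 or 20 genes reached 1.5, depending on how many knockout libraries the mean is taken to hold.

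The 7 highest ratios lay between 3.00 and 4.80. Idua, which removes iduronic acid from heparan and dermatan sulfate, had a mean of 109 normalized counts in the authors' deposited control table and 523 in the paused one, a ratio of 4.80. Hexa, the alpha subunit of hexosaminidase, went from 1195 to 5636 in the authors' deposited tables (ratio 4.72). Ctsa, the protective protein of beta-galactosidase and sialidase, had a ratio of 3.97, Sgsh of 3.32, Naglu of 3.16 and Grn, progranulin, of 3.00. Some of these share exon bases with a gene on the opposite strand, 10.5% for Ctsa with Pltp (means of 1036 and 2858 in the authors' deposited tables) and 6.87% with Neurl2, 21.6% for Sgsh with Card14 (means of 10.3 and 21.9) and 12.8% for Hexa with Tmem202. Idua shares 2.95% with Dgkq and 3.35% with Slc26a1, and Grn 1.96% with Fam171a2. The part of shared reads in these ratios was not tested. Among membrane proteins Mcoln1, the calcium channel TRPML1, had the highest ratio, 3.13. These 7 genes stand well apart from the median of all genes on the plot of paused over control levels.

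Not all members stood higher. Fuca1, a fucosidase, had a ratio of 0.615 and was the only member under 0.667, the inverse of 1.5-fold. Man2b1, a mannosidase, had 0.715, Gusb, beta-glucuronidase, 0.780, and Ids, iduronate sulfatase, 0.863. The transcription factor genes themselves stood lower or level, with ratios of 0.770 for Mitf, 0.881 for Tfe3 and 0.976 for Tfeb.

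**Figure D1:**
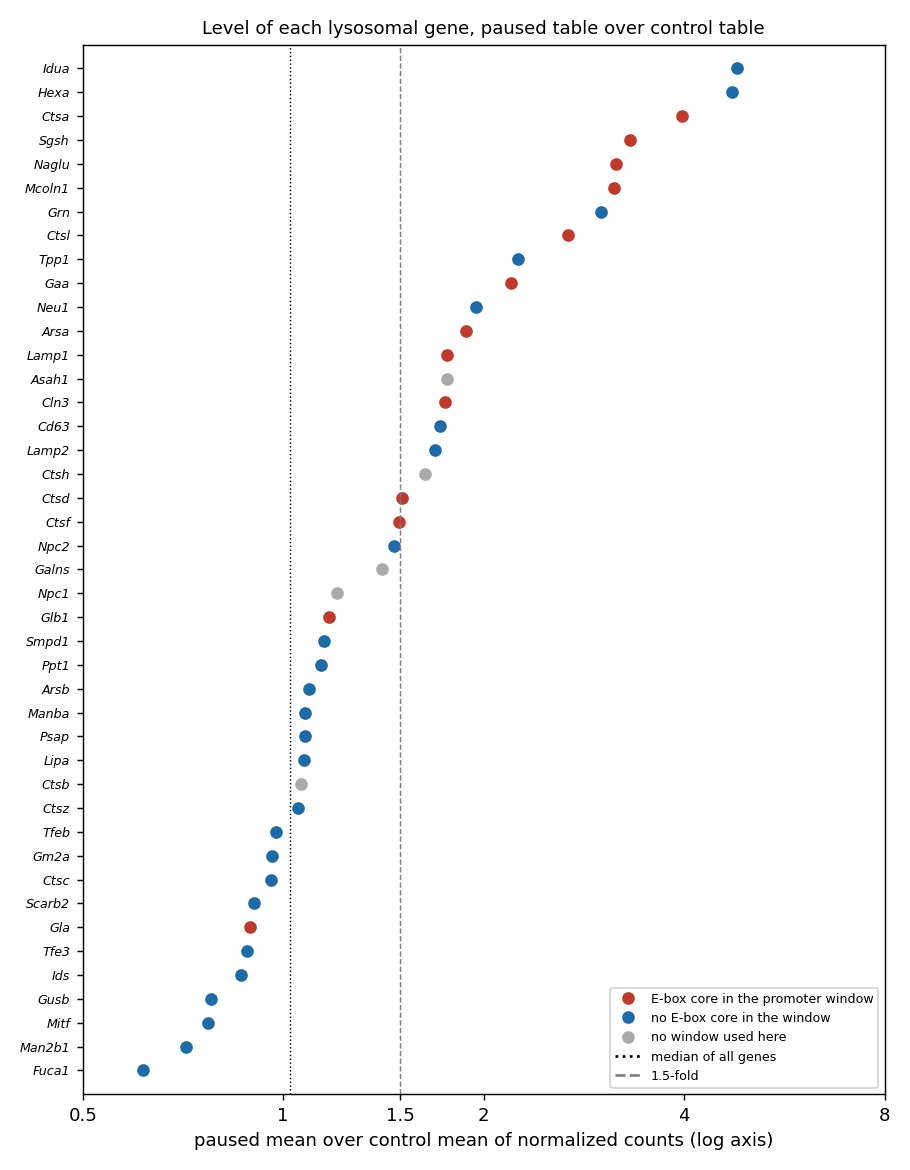
Paused mean over control mean of normalized counts for each of the 43 genes, on a log axis with no error available; colour marks whether CACGTG lies in the promoter window, the dotted line the median of all genes (1.02) and the dashed line 1.5-fold. Idua and Hexa stand highest, near 4.80 and 4.72, and 10 of the 13 genes with a core reach 1.5-fold.

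Members with an E-box core in a promoter window had a median ratio of 1.88, and 10 of 13 reached 1.5. Members with a window and no core had a median of 1.08, and 7 of 25 reached 1.5. Over all genes the same split gave medians of 1.09 and 1.02, with 22.5% and 17.8% at 1.5 or more. The M-box separated the members less. With it the median ratio was 1.70 and 3 of 6 reached 1.5, and without it 1.32 and 14 of 32. Hexa, Idua and Grn had high ratios and no core in the window, while Gla, alpha-galactosidase A, had 2 cores and a ratio of 0.892. These values are a description with no test.

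The comparison in control cells asked how these genes differ between libraries labelled Smad2 knockout and wild type outside pausing. Of the 43 genes, 22 passed an adjusted p of 0.05 in the authors' deposited control table and are termed called, 12 higher and 10 lower in the knockout. Over all genes 41.4% were called, 19.5% higher and 21.9% lower, and 51.6% of genes whose mean reached 230 normalized counts (19.0% higher, 32.6% lower). Above that mean 22 of 38 members were called, 57.9%, with 31.6% higher and 26.3% lower. The median change was 0.07 on the log2 scale over the members and 0.00 over all genes tested, or -0.05 over those above that mean. Rescaling knockout and wild type to equal summed counts gave 24 calls among the members, 16 of them higher. That is 66.7%, where the deposited changes gave 54.5%.

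In paused cells the balance among the members lay the other way. The authors' deposited paused table called 26 of 43 genes, 8 higher and 18 lower in the knockout. Over all genes 42.6% were called, 20.5% higher and 22% lower, and 53.0% of genes whose mean reached 221 normalized counts (20.2% higher, 32.8% lower). Above that mean 26 of 41 members were called, 63.4%, with 19.5% higher and 43.9% lower. The median change was -0.07 over the members, 0.00 over all genes and -0.05 over genes above that mean. When each statistic was divided by the middle spread of all genes, 2 of the 22 control calls and 1 of the 26 paused calls were left, Gm2a and Mitf in control and Scarb2 in paused cells. Most changes were small in both conditions, with a median size of 0.19 in control and 0.20 in paused cells and a largest of 0.77 and 0.69 on the log2 scale.

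Called in both tables with 1 direction were 16 genes (30.3% over all genes), 6 higher (14.3% over all genes) and 10 lower (16%), and no member was called in opposite directions. Over genes above a minimum mean the shares were 36.5%, 13.9% and 22.6%, and over all 43 members 37.2%, 14.0% and 23.3%. Only 39 members are above that mean, and all 16 called genes are among them. Shares of those 39 would be somewhat higher, so these counts are near the background of abundant genes, with no test. The 6 called higher in both were Gm2a, Ctsf, Psap, Glb1, Gaa and Mitf. The 10 called lower in both were Scarb2, Cd63, Ctsc, Ctsl, Ctsz, Fuca1, Ids, Arsa, Lipa and Tfe3. Across the 43 genes the changes in control and paused cells had a Pearson r of 0.864, against 0.818 across all genes and 0.880 across those above a minimum mean, where genes are not replicates.

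**Figure D2:**
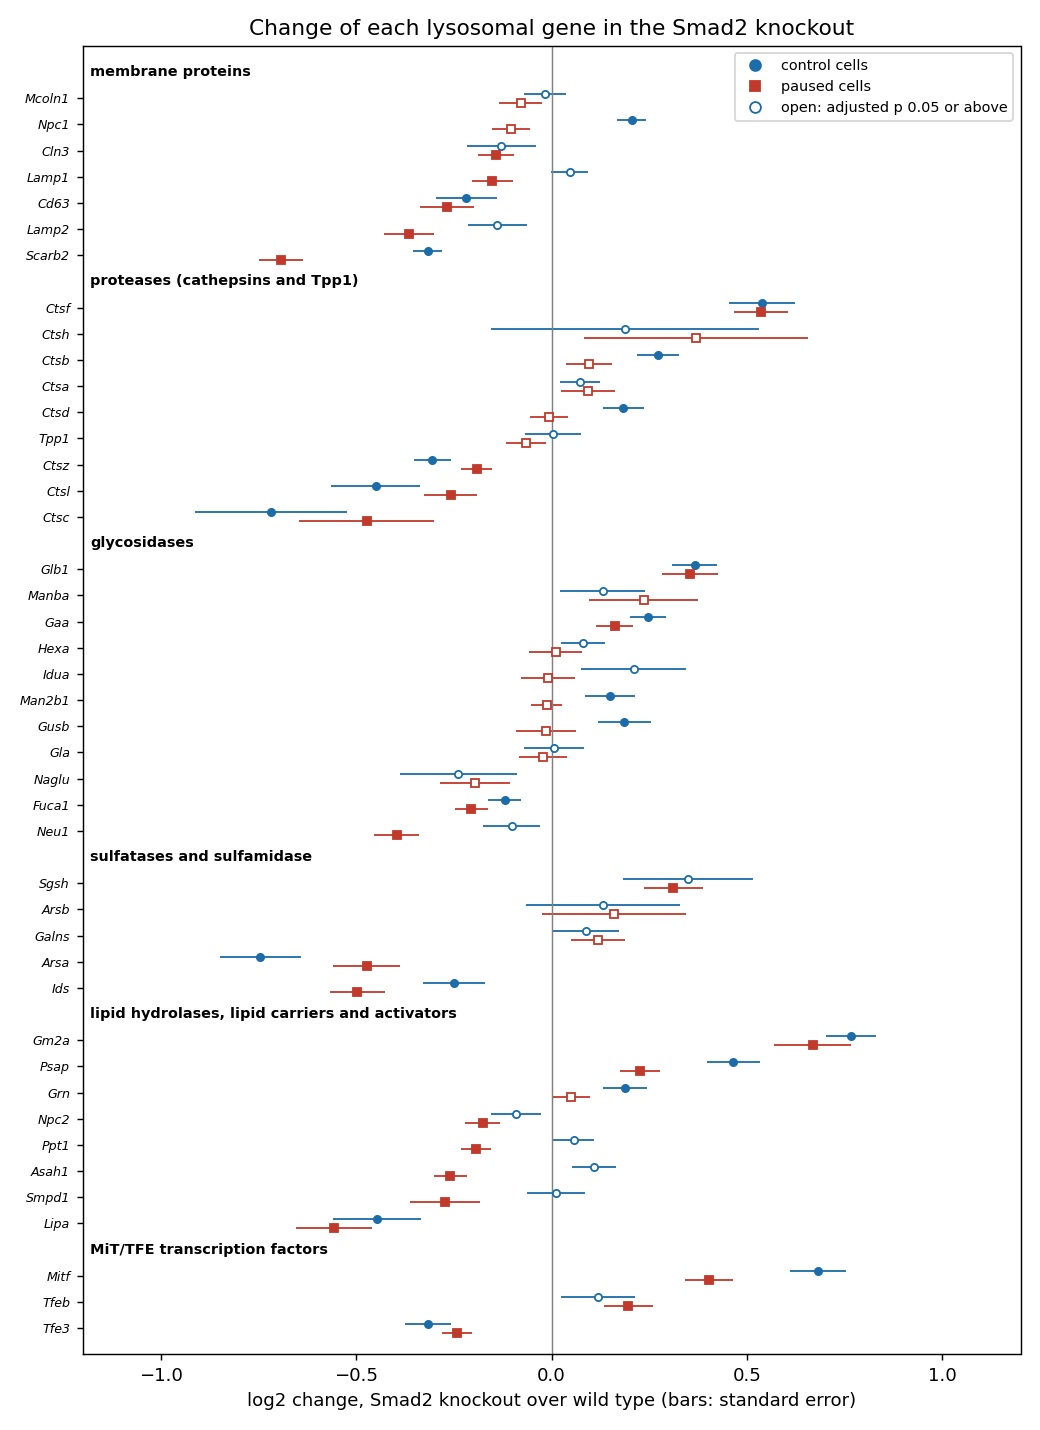
Log2 change of each gene in the knockout over wild type, in control cells (circles) and paused cells (squares), with the standard error of the authors' deposited tables as bars and open symbols for changes that were not called. Genes are grouped by role; all 7 membrane protein genes lie below 0 in paused cells, and 5 of them were called.

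Among the transcription factors, the 3 genes went different ways. Tfe3 fell in both conditions, to 80.3% of wild type in control cells (95% interval 74.2% to 87.0%) and to 84.6% in paused cells (80.2% to 89.1%). Its changes in the authors' deposited tables were -0.32 (SE 0.06, adjusted p 7.73e-07) and -0.24 (SE 0.04, adjusted p 4.55e-09). Mitf rose in both, to 160% of wild type in control cells (145% to 177%) and 132% in paused cells (122% to 144%). The changes of Mitf in the authors' deposited tables were 0.68 (SE 0.07, adjusted p 2.34e-19) and 0.40 (SE 0.06, adjusted p 4.68e-10). Tfeb was called in paused cells only, at 0.20 in the authors' deposited table (SE 0.06, adjusted p 0.00609). Its control value was 0.12 (SE 0.09, adjusted p 0.330), and the difference of the Tfeb changes, 0.08 with a 95% interval from -0.15 to 0.30, was not called. Per kilobase Tfe3 and Tfeb stood at 824 and 772 normalized counts in control cells and Mitf at 136.

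Of the 7 lysosomal membrane genes, 5 were called lower and 0 higher in paused cells, against 2 lower and 1 higher in control cells. Over genes above the minimum means 19.0% were called higher and 32.6% lower in control cells, and 20.2% higher and 32.8% lower in paused cells. The control count is near these shares, and each later count by role or list is read against them. Those later counts keep genes under the minimum means, which the shares leave out. Scarb2 codes for LIMP-2, which carries glucocerebrosidase to the lysosome. It fell to 80.3% of wild type in control cells (76.4% to 84.5%) and to 61.8% in paused cells (57.3% to 66.7%). The changes in the authors' deposited tables were -0.32 (SE 0.04, adjusted p 7.17e-16) and -0.69 (SE 0.06, adjusted p 4.24e-33), the latter the steepest fall of any member in paused cells. Cd63, a tetraspanin of late endosomes and lysosomes, fell to 85.9% (77.3% to 95.6%) and 83.0% (75.5% to 91.3%). Its changes in the authors' deposited tables were -0.22 (SE 0.08, adjusted p 0.0161) and -0.27 (SE 0.07, adjusted p 5.84e-04), and its control call was lost under 5 of 7 alternatives, equal summed counts (adjusted p 0.0842) and an adjusted p under 0.01 among them. Lamp2, the partner of Lamp1 in the lysosomal membrane, fell to 77.7% in paused cells (adjusted p 1.63e-07 in the authors' deposited table) and stood at 90.8% in control cells, not called.

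Lamp1 and Cln3 fell slightly in paused cells, to 90.0% and 90.7% of wild type. These calls were lost with equal summed counts (adjusted p 0.0649 and 0.0524). In control cells the 2 genes stood at 103% and 91.5%, not called. The differences between their paused and control changes were -0.20 and -0.01, not called (adjusted p 0.146 and 0.981). Cln3 codes for a lysosomal membrane protein that is mutated in juvenile Batten disease. Npc1, which moves cholesterol out of the lysosome, rose to 115% of wild type in control cells (110% to 121%). In paused cells Npc1 stood at 93.0% and was not called (adjusted p 0.0665 in the authors' deposited table). Mcoln1 was called in neither condition.

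Of the 9 proteases, 3 were called higher and 3 lower in control cells, and 1 higher and 3 lower in paused cells. The share called lower, 33.3% in each, equals that of genes above the minimum means to within 1 percentage point. It counts Ctsh, which lies under those means and was not called. Ctsf, a cysteine cathepsin, rose by the same amount in both, to 145% of wild type (129% to 163% in control and 132% to 159% in paused cells). Its change was 0.54 in each of the authors' deposited tables (SE 0.09 and 0.07, adjusted p 4.35e-09 and 1.26e-13). Ctsb, a cysteine protease, and Ctsd rose in control cells by 0.27 and 0.18 in the authors' deposited table (adjusted p 3.81e-06 and 0.00166) and stood at 0.10 and -0.01 in paused cells, not called. Ctsb shares 12.8% of its exon bases with the opposite strand of Fdft1, and Ctsd 34.4% on the same strand with the gene model Gm49369. The library kit marks strand, but whether the counting used it is not given in the sources used here, so values of such overlapping genes are uncertain.

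Ctsc, Ctsl and Ctsz fell in both conditions. Ctsc, which removes dipeptides and activates serine proteases of immune cells, fell to 60.8% of wild type in control cells (46.7% to 79.1%) and 72.1% in paused cells (57% to 91.1%). Its standard errors, 0.19 and 0.17 in the authors' deposited tables, were the largest of the called proteases. Ctsl, a broad cysteine protease, fell to 73.2% (62.7% to 85.4%) and 83.6% (76.2% to 91.7%); an antisense gene model covers 26.8% of its exon bases. Ctsz, a carboxypeptidase, fell to 80.9% (75.9% to 86.4%) and 87.6% (82.9% to 92.5%). Ctsa and Tpp1, a tripeptidyl peptidase, were called in neither condition, nor was Ctsh at means of 15.2 and 24.9 in the authors' deposited tables.

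Of the 11 glycosidases, 4 were called higher and 1 lower in control cells, and 2 higher and 2 lower in paused cells. The paused counts lie near or under the shares of genes above the minimum mean, 20.2% higher and 32.8% lower. Glb1, beta-galactosidase, rose to 129% of wild type in control cells (119% to 139%) and 128% in paused cells (116% to 141%), with 5.49% of its exon bases shared on the same strand with Tmppe. Gaa, which breaks down glycogen in the lysosome, rose to 119% (111% to 126%) and 112% (105% to 119%). Gusb and Man2b1 rose in control cells alone, to 114% and 111%; whether they differ between conditions was tested and not called (adjusted p 0.389 and 0.317). Fuca1 fell to 92.1% (86.9% to 97.5%) and 86.7% (81.9% to 91.9%), with adjusted p of 0.0147 and 8.74e-06 in the authors' deposited tables, and the control call was lost with equal summed counts (adjusted p 0.228). Neu1, the lysosomal sialidase, fell to 76.0% in paused cells (70.3% to 82.2%, adjusted p 1.05e-10 in the authors' deposited table) and stood at 93.1% in control cells, not called. Gla, Hexa, Idua, Naglu and Manba were called in neither condition.

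Of the 5 genes for sulfate removal, 0 were called higher and 2 lower in control cells, and 1 higher and 2 lower in paused cells. The share called lower, 40% in each, stands against 32.6% and 32.8% of genes above the minimum means, with no test. Arsb, at means of 81.1 and 88.6 normalized counts, and in control cells Sgsh, at 95.7, lie under those minimum means. Neither was called lower, so counting them makes the share of the 5 smaller. Arsa, which desulfates sulfatide, a lipid of myelin, fell to 59.7% of wild type in control cells (51.9% to 68.6%) and 72.0% in paused cells (64.2% to 80.9%). Its changes in the authors' deposited tables were -0.75 (SE 0.10, adjusted p 1.31e-11) and -0.47 (SE 0.09, adjusted p 2.65e-07). An antisense gene, C230037L18Rik, covers 18.8% of the exon bases of Arsa at means of 8.44 and 22.4 normalized counts in the authors' deposited tables. Ids fell to 84.1% (75.5% to 93.6%) and 70.8% (64.4% to 77.9%). Sgsh, which acts after Ids on heparan sulfate, rose in paused cells to 124% (112% to 138%) and stood at 127% in control cells, where the interval of 102% to 159% was wider and the adjusted p was 0.0767 in the authors' deposited table. Galns and Arsb were called in neither condition.

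Of the 8 genes for lipid hydrolases, lipid carriers and activators, which include Grn, 3 in control cells were called higher and 1 lower, and in paused cells 2 higher and 5 lower. The share called lower in paused cells, 62.5%, stands against 32.8% of genes above the minimum mean, with no test. Gm2a, the activator that hands GM2 ganglioside to hexosaminidase, had the largest rise of any member in both tables. It stood at 170% of wild type in control cells (156% to 186%) and 159% in paused cells (139% to 182%). The changes of Gm2a in the authors' deposited tables were 0.77 (SE 0.06, adjusted p 1.81e-30) and 0.67 (SE 0.10, adjusted p 2.07e-10). Psap rose to 138% (126% to 151%) and 117% (109% to 126%) of wild type, from 2 of the highest means of the set in the authors' deposited tables, 13397 and 14446 normalized counts. Grn rose in control cells to 114% and stood at 103% in paused cells, not called.

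Lipa, the acid lipase that splits cholesteryl esters and triglycerides, fell in both conditions, to 73.4% of wild type in control cells (63.0% to 85.4%) and 68.0% in paused cells (59.6% to 77.5%). Asah1, acid ceramidase, fell to 83.6% in paused cells (78.8% to 88.6%) and stood at 108% in control cells (99.8% to 116%, adjusted p 0.115 in the authors' deposited table). With equal summed counts the control value of Asah1 was called higher (adjusted p 0.0129), as were those of Ctsa, Hexa and Sgsh (adjusted p 0.0338, 0.0437 and 0.0383). Smpd1, acid sphingomyelinase, fell to 82.8% in paused cells and stood at 101% in control cells. Ppt1, which removes palmitate from proteins, fell to 87.4% in paused cells and stood at 104% in control cells. Npc2, the luminal carrier that passes cholesterol to Npc1, fell to 88.5% in paused cells and stood at 93.9% in control cells, not called.

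**Figure D3:**
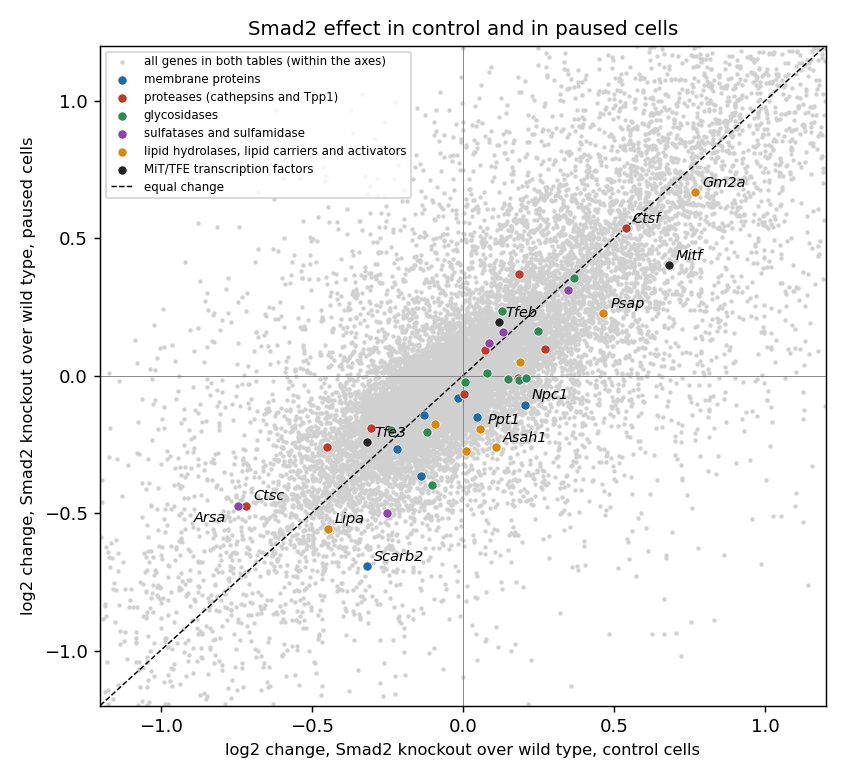
Log2 change of each gene in control cells (horizontal) against paused cells (vertical), coloured by role, over all genes of both tables in grey that lie within the axes; the dashed line marks equal change. Scarb2, Asah1, Npc1 and Ppt1 lie below the line, and Gm2a, Ctsf and Mitf lie at the upper right.

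A further test asked whether the change in the Smad2 knockout was unequal in paused and control cells, from the paused minus the control change and their joint standard error. The difference was called for 4 of the 43 genes, Scarb2, Asah1, Npc1 and Ppt1, all toward a lower value in paused cells. Over all 19134 genes 1.44% were called, 0.721% toward a lower value. Among 10952 genes above a minimum mean the shares were 2.92% and 1.42%, and the same 4 members were called of 39. The difference was below 0 for 31 of 43 members, against 48.7% of all genes, and the median was -0.09 against 0.01. At an unadjusted p under 0.05 there were 15 members, 14 of them lower in paused cells, against 12.9% and 6.22% of all genes. Among the 10952 genes above the minimum mean there were 1861, 899 of them lower in paused cells, which are larger shares. The control and paused libraries are distinct by the labels.

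Scarb2 differed by -0.38 (SE 0.07, 95% interval -0.51 to -0.25, adjusted p 4.25e-05), since its fall was larger in paused cells. Its gene lies at chr5:92441311-92505657 on GRCm38.p6. Asah1, at chr8:41340646-41397644, differed by -0.37 (SE 0.07, interval -0.51 to -0.23, adjusted p 2.41e-04). Npc1, at chr18:12189694-12236506, differed by -0.31 (SE 0.06, interval -0.43 to -0.19, adjusted p 3.36e-04). Ppt1, at chr4:122836077-122859175, differed by -0.25 (SE 0.07, interval -0.38 to -0.12, adjusted p 0.0161). The call of Ppt1 alone among the 4 was also lost at an adjusted p under 0.01 and with the statistic so divided (adjusted p 0.236). Scarb2 was called lower in both tables, Asah1 and Ppt1 in paused cells alone, and Npc1 higher in control cells alone.

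The 4 differences are each under 1.5-fold, and none was called when tested against a difference of at most 1.2-fold. Ppt1 shares 129 exon bases, 3.51% of its exon length, with the opposite strand of Cap1, and Npc1 shares 511 bases (4.52%) with that of Rmc1, so their reads are less certain than those of Scarb2 and Asah1, for which GENCODE M21 gave no shared exon.

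Next in order of p came Neu1 and Mitf, which were not called. Neu1 differed by -0.29 (SE 0.09, adjusted p 0.0766) and was called with equal summed counts (adjusted p 0.0477). Mitf differed by -0.28 (SE 0.09, adjusted p 0.109). By role, the difference was below 0 for 7 of 7 membrane genes, 8 of 8 lipid genes and 9 of 11 glycosidases, but for 4 of 9 proteases, 2 of 5 sulfatases and 1 of 3 transcription factors. Arsa had the highest value, 0.27 with an interval from 0.01 to 0.53, and was not called (adjusted p 0.362).

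**Figure D4:**
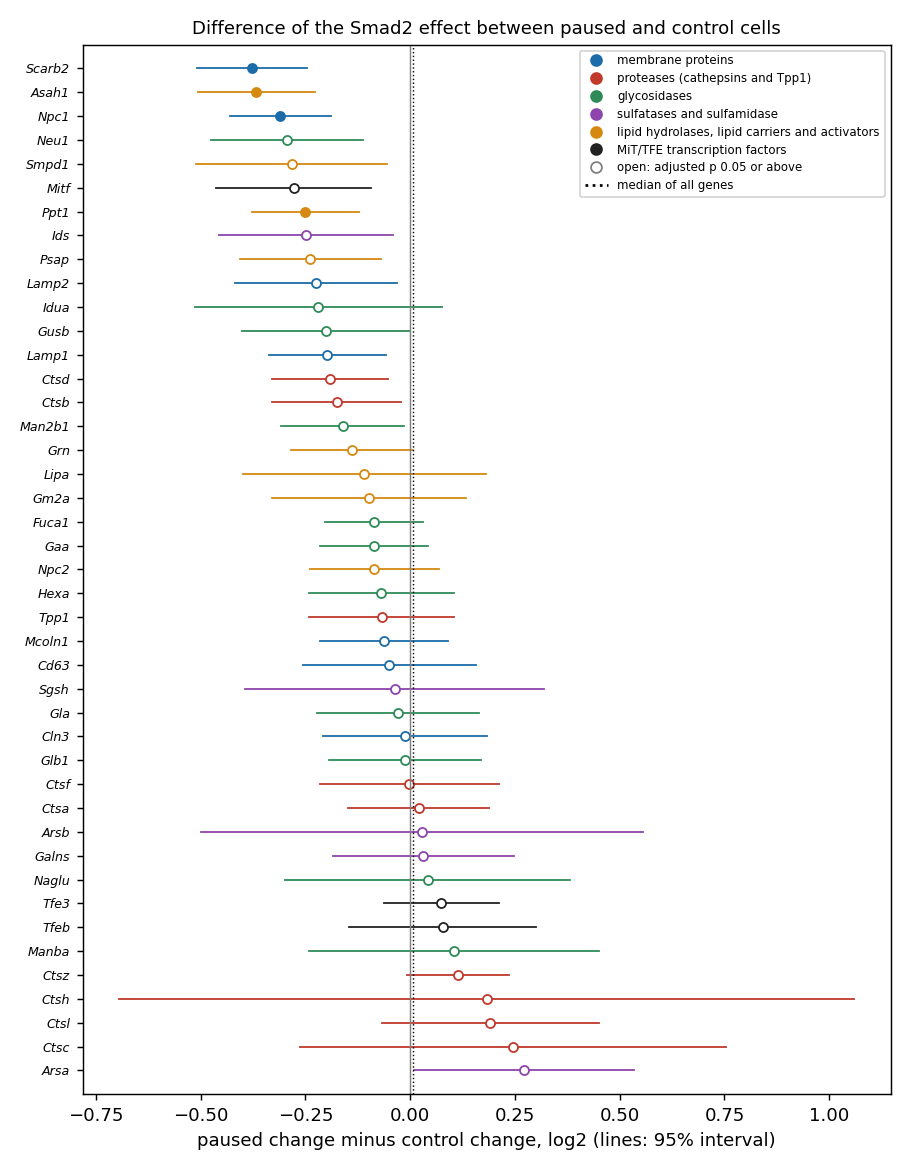
Paused change minus control change for each of the 43 genes, in log2 units, with lines for the 95% interval, filled points for the 4 called genes and a dotted line for the median of all genes (0.01). Scarb2, Asah1, Npc1 and Ppt1 are filled and lie between -0.38 and -0.25, and 31 points lie below 0.

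Genes that work beside the members were read from further lists. V-ATPase is the pump that makes the lysosome acidic. Of its 18 listed subunit genes, 6 were called lower and 0 higher in control cells, and 10 lower and 0 higher in paused cells. Among genes above the minimum means 32.6% and 32.8% were called lower, so the control count of 33.3% is at the background and the paused count of 55.6% lies above it, with no test. The median changes were -0.09 and -0.13, against -0.05 in each table for all genes above those minimum means. Atp6v1g1 fell by 0.28 and 0.37 in the authors' deposited control and paused tables, Atp6v0a1 by 0.15 and 0.35, and Atp6v0e2 by 0.34 and 0.32. No subunit was called for the difference, which was below 0 for 10 of 18, against 48.7% of all genes. At an unadjusted p under 0.05 there were 5, all lower in paused cells, against 12.9% and 6.22% of all genes. Of the 10952 genes above a minimum mean, 1861 passed, 899 of them lower in paused cells.

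Soluble enzymes reach the lysosome with a mannose 6-phosphate tag that receptors bind. Of 9 genes for tagging and sorting, 3 were called higher and 2 lower in control cells, and 1 higher and 3 lower in paused cells, of which the paused counts are at or under the shares of abundant genes. Igf2r, the large receptor for the tag, rose by 0.25 in the authors' deposited control table and fell by 0.11 in the paused one (adjusted p 8.24e-05 and 0.0329). Its difference of -0.36 was called (SE 0.07, adjusted p 4.63e-04). Gnptab, which codes for the enzyme that starts the tag, fell by 0.21 and 0.30 in the authors' deposited control and paused tables, and the sorting receptor gene Sort1 by 0.22 and 0.40.

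Another 25 hydrolase and cofactor genes, apart from the members, had 8 called higher and 5 lower in control cells and 5 higher and 9 lower in paused cells, where 20.0% and 36.0% are close to the shares of abundant genes. Their difference was below 0 for 21 of 25, against 48.7% of all genes, with a median of -0.11, and none was called. In that test 7 had an unadjusted p under 0.05, all lower in paused cells, against 12.9% and 6.22% of all genes. Of the 10952 genes above a minimum mean, 1861 passed, 899 of them lower in paused cells. Ggh, which trims folate polyglutamates, fell by 0.46 and 0.80 in the authors' deposited control and paused tables. Acp5, an acid phosphatase known from osteoclasts and macrophages, rose by 0.58 and 0.66 in the authors' deposited tables. Hyal1, a hyaluronidase, fell by 0.59 in the authors' deposited paused table and stood at -0.07 in the control one, not called.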

How the data were processed

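Poly(A) RNA libraries of 24 samples, with genotype and treatment read from each title, stand behind 2 tables. The submitters' processing notes name FastQC, Trim Galore, HISAT2, featureCounts and DESeq2, with build mm10 and no versions; annotation, strand setting and the libraries in each table are not given in the sources used here. Per the file headers, the authors deposited a mean of normalized counts (a signal value), a log2 change with its standard error on the log2 scale, a statistic (a score, the change over its error), a p-value and an adjusted p-value. The columns were checked: change over error gave the statistic, and normal p and Benjamini-Hochberg values matched the deposited ones within 2%. Depth per library is unknown.

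Calls within a condition are those of the deposited tests. The median standard error of the members was 0.07 in control and 0.06 in paused cells. The difference of changes was set against its joint standard error (errors added in squares), two-sided and normal, and adjusted over 19134 genes. On simulated tables with the real errors and 200 genes changed 2-fold, it recovered 73.0%, and 3.95% of calls were false. The simulated noise was normal with the same errors that the test divides by. The result therefore checks the calculation and not whether the deposited errors are right. Recovery of differences as small as those of the called members was not simulated. Intervals are 95% normal. Lengths and exons came from GENCODE M21 (88.4% of genes had a length), places and promoters from RefSeq on GRCm38.p6, the assembly of mm10. Python 3.11.15, numpy 2.4.6, scipy 1.17.1 and pandas 2.3.3 were used.

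The members, role groups and lists were chosen with earlier results of these data known. All members are accounted for. The genes chosen for fuller values are the transcription factors and members called in both tables. Added to them are the 5 largest rises and falls per table and the 6 smallest p-values of the difference. Of each further list at most the 3 called genes with the largest change are named, with Ppp3cb and Ppp3r1 given beside Ppp3ca.

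Alternatives were an adjusted p under 0.01, at least 1.5-fold, a test against at most 1.2-fold, the median change set to 0, equal summed counts, a statistic scaled to its middle spread, and a minimum mean (230 normalized counts in control, 221 in paused cells); those on the ratio of means were chosen after seeing the data.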

Additional observations from a re-analysis of the deposited data

Results flagged for a closer look

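The test of the difference itself, paused minus control change, was called for 4 members. The values were -0.38 for Scarb2, -0.37 for Asah1, -0.31 for Npc1 and -0.25 for Ppt1. Among genes of the further lists it was called for Igf2r, at -0.36. Of the marker genes, Cubn, a receptor of visceral endoderm, rose more in paused cells (1.04, adjusted p 0.0144), and the difference for Eomes, a trophoblast and mesendoderm gene called lower in control cells alone, was 0.89 (adjusted p 0.0326).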

How the results depend on the processing

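With the median change set to 0, with a minimum on the mean and at an adjusted p under 0.01, the members called stayed within 1.5 times of 22 in control, 26 in paused cells and 4 for the difference. Asking for at least 1.5-fold left 4 in control cells (2 higher, 2 lower), 2 in paused cells (1 higher, 1 lower) and 0 for the difference, against 15.0%, 14.7% and 0.376% of all genes, so the members' shares fell below the background. The test against 1.2-fold left 5 (4 higher, 1 lower), 5 (2 higher, 3 lower) and 0, against 10.6%, 10.6% and 0.0105% of all genes, which is near the members' shares. In the test of the difference against no change, 15 members had an unadjusted p under 0.05. The statistic scaled to its middle spread left 2 in control cells (2 higher, 0 lower), 1 in paused cells (0 higher, 1 lower) and 3 for the difference; over all genes it left 293, 450 and 35 calls. Only Gm2a and Mitf in control cells and Scarb2 in paused cells were called under each of the 7 alternatives. Equal summed counts shifted changes by 0.06 in control and 0.04 in paused cells and turned 6 uncalled values: Mcoln1 to 0.038 in control cells, and Ctsd to 0.029, Gla to 0.013, Gusb to 0.021, Idua to 0.027 and Man2b1 to 0.023 in paused cells. It made 60.5% of all calls in control and 57.6% in paused cells higher, against 47.1% and 48.2%. The cause of these shifts was not tested. Under the alternatives for the ratio of means, 16 to 21 members reached 1.5-fold.

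No paired analysis was possible because the deposited tables hold no value per library; leaving out a replicate was not run for the same reason. Without depth per library, the limit of detection of low genes such as Ctsh is unknown.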

Other observations

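The further lists held 2 groups not described above. Of 20 other membrane transporters and channels, 3 were called higher and 3 lower in control cells, and 4 higher and 5 lower in paused cells. These counts are at or under the shares of genes above the minimum means, 19.0% higher and 32.6% lower in control and 20.2% higher and 32.8% lower in paused cells. Slc29a3, a nucleoside transporter of the lysosome, rose by 0.57 and 0.41 in the authors' deposited control and paused tables. Slc38a9, an arginine sensor that reports to mTOR complex 1, fell by 0.24 and 0.34 in the authors' deposited tables. Abcb9, a peptide transporter, rose by 0.97 and 0.45 in the authors' deposited tables from low means of 17.9 and 46.7 normalized counts.

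Of 11 genes that control TFEB and TFE3 directly, 1 was called higher and 5 lower in each condition, 9.09% and 45.5% against those shares. Rragb, a Rag GTPase that recruits mTOR complex 1 to the lysosome, fell to 54.5% of wild type in control cells (95% interval 47.3% to 63.0%) and to 60.9% in paused cells (54.9% to 67.5%). Rragc, which codes for a partner GTPase that binds TFEB, fell by 0.16 and 0.35 in the authors' deposited control and paused tables. Ppp3ca, a catalytic subunit of calcineurin, which dephosphorylates TFEB, rose by 0.15 and 0.31 in the authors' deposited tables. The other calcineurin genes listed went the other way and were called lower in both conditions. Ppp3cb fell by 0.26 and 0.10 in the authors' deposited tables, and Ppp3r1 by 0.25 and 0.11. The difference was called for none of the 11 by the test of paused minus control change. In that test 5 had an unadjusted p under 0.05, 2 of them lower in paused cells, against 12.9% and 6.22% of all genes. Of the 10952 genes above a minimum mean, 1861 passed, 899 of them lower in paused cells.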
